A study of Mus musculus with 4 samples.

Results

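Peaks of CTCF in wild-type mouse gastruloids were set against peaks of CTCF in InsCBS5-10 gastruloids, whose HoxB locus had been rearranged. Gastruloids are aggregates of mouse embryonic stem cells that elongate and form a body axis in culture. On the background HoxB Del/Del(i9-13), in which 1 copy of the HoxB cluster was deleted and the other lacked the interval i9-13, this genotype carried the inserted CTCF binding sites CBS5-10, written Ins(CBS5-10). The wild-type gastruloids carried none of these changes. A list of CTCF in the same genotype after a further deletion of the sites CBS7-10, here DelCBS7-10, and a list of RAD21 in InsCBS5-10 were used for their calls at the same sites. All were pooled gastruloids fixed at 96 h after aggregation, and each group had 1 library, made by ChIPmentation, an immunoprecipitation whose adapters are put in by Tn5 transposase on the beads. What follows is therefore a description of 2 libraries, and genotype, stem cell line and library cannot be told apart. The sources used here do not give how many stem cell clones stood behind each genotype, and peak lists hold no expression with which to check the labelled material against markers.

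The comparison covered 46670 wild-type and 33698 InsCBS5-10 peaks on chromosomes 1 to 19, together 80368 of the 145623 peaks in the 4 lists over all chromosomes. Summits that shared an interval were counted as 1 peak. A site was shared where peaks of both lists overlapped by 1 bp or more. Strength was the authors' fold enrichment of the summit over the background of its own library, and it was turned into a percentile rank within its list, on which 100 is the strongest peak. The strongest 30% of each list are called strong here: 14001 wild-type peaks, of which the weakest had a fold of 8.03, and 10110 InsCBS5-10 peaks, of which the weakest had a fold of 6.87. The next weaker peak had the same rounded fold in both lists, 8.03 and 6.87. Missing means not called, which does not show that binding was absent.

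CTCF is a zinc-finger protein that binds a long asymmetric motif and halts cohesin as it extrudes chromatin loops. RAD21 is the subunit that closes the cohesin ring, so its peaks mark where cohesin is held. Many CTCF sites lie between genes or in introns, and others lie at promoters, often rich in the dinucleotide CpG, where CTCF can be bound along with the transcription machinery. In the Hox clusters, CTCF sites separate early anterior from later posterior genes.

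Some of the gene starts that carry the main contrast of the comparison are shown here as the 300 bases around the start. They were taken from RefSeq on GRCm38.p6 and run 5′ to 3′ on the strand of the gene, from 250 bases before the start to 50 after it. Capitals mark matches to the core of the CTCF motif, read as CCA, 2 free bases, AG, 2 free bases and GGC, on either strand. This core was in 2.36% of 19551 promoters. The first 3 promoters are some, not all, of those picked by the naming rule. Of the others, picked after their values were seen, 3 are all the starts with a core whose strong wild-type peak was missing from InsCBS5-10. The last 2 had a peak that ranked near the top of both lists.

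Kctd6, chr14:8213831-8214130, strong wild-type peak, no peak in InsCBS5-10: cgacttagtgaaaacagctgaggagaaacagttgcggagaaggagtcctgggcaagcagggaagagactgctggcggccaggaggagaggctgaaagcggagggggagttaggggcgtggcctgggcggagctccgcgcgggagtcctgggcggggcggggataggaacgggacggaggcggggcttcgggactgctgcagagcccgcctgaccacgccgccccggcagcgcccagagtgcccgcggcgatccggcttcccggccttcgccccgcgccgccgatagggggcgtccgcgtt
Meaf6, chr4:125084884-125085183, shared, rank far lower in InsCBS5-10: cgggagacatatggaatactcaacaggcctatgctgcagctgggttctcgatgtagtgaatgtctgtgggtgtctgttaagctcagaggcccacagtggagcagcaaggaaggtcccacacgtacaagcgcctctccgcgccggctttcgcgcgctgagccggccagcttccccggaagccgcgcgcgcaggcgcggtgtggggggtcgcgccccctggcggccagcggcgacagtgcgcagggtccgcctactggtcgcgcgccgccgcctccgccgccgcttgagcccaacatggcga
Pxylp1, chr9:96889425-96889724, shared, rank far lower in InsCBS5-10: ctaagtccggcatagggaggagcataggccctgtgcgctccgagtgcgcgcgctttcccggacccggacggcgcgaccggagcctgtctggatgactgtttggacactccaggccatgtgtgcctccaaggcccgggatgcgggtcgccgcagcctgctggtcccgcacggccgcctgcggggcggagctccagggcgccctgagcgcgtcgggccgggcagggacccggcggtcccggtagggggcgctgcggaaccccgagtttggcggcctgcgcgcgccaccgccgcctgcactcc
Crocc, chr4:141060496-141060795, strong wild-type peak, no peak in InsCBS5-10: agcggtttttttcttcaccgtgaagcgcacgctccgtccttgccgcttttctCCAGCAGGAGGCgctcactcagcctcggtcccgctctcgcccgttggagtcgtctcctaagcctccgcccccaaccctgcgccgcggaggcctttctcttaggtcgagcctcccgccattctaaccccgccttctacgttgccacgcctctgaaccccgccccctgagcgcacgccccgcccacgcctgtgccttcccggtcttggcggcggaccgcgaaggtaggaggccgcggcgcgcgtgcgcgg
Fxr2, chr11:69632721-69633020, strong wild-type peak, no peak in InsCBS5-10: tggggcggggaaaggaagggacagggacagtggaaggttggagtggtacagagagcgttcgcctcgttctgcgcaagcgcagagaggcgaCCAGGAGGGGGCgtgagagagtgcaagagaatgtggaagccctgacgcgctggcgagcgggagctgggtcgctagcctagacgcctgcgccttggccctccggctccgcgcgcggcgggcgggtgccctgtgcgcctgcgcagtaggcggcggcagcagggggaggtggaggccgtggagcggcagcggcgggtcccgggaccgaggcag
Sh3glb2, chr2:30359267-30359566, strong wild-type peak, no peak in InsCBS5-10: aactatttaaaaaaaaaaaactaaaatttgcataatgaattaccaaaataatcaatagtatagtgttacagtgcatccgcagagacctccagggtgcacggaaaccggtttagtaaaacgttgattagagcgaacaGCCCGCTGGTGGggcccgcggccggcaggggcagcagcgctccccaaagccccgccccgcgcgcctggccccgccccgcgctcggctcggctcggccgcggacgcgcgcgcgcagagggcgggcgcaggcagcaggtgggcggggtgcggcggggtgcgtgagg
Rapgef1, chr2:29619470-29619769, shared, top of both lists: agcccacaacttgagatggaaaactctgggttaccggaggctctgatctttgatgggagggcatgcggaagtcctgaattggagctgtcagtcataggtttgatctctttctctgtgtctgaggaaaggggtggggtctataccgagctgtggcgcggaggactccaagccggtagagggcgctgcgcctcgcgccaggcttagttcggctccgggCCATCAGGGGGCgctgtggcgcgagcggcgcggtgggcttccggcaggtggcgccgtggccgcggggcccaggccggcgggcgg
Agfg1, chr1:82839210-82839509, shared, top of both lists: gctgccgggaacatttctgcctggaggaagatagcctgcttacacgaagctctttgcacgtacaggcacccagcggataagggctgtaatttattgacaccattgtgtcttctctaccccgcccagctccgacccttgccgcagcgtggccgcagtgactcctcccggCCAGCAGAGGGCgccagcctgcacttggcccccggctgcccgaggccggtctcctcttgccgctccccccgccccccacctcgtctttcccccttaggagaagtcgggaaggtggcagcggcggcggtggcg

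The promoters of Kctd6, Meaf6 and Pxylp1 had no match to the core in these 300 bases, which says only that these letters are not there. All 3 hold a looser form of it, with the third base free, which was chosen after the values were seen and is in 10.1% of promoters. Of the others picked by the naming rule, Anp32b, Gclm and Coil held this form and Ahcyl1, Frs3, Vps4a and Ubqln4 did not. The promoters of Kctd6, Meaf6 and Pxylp1 held 33, 34 and 38 CpG dinucleotides. Those of Anp32b, Gclm and Coil held 40, 48 and 21, and those of Ahcyl1, Frs3, Vps4a and Ubqln4 held 23, 39, 26 and 29. Those of Rapgef1 and Agfg1 held 26 and 22. Over all promoters the median was 13.

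At the promoter of Rapgef1, a guanine nucleotide exchange factor for Rap GTPases, the fold was 21.6 in wild type and 18.0 in InsCBS5-10, at percentile ranks of 99.9 and 99.8. The peak was also strong in DelCBS7-10 (15.2), and RAD21 was called there at 5.56. At Agfg1, a protein with nucleoporin-type repeats, the fold was 21.2 in wild type and 10.9 in InsCBS5-10, at ranks of 99.8 and 97.5, and no RAD21 was called. The peak at Crocc, which encodes the rootletin of the ciliary rootlet, had a fold of 12.1 in wild type at rank 92.4, no peak in InsCBS5-10, and a fold of 2.97 at rank 3.48 in DelCBS7-10. Fxr2 (10.8, rank 87.1), an RNA-binding relative of the fragile X protein, and Sh3glb2 (8.43, rank 73.0), an endophilin, had a peak in neither mutant. Among these starts, picked by their values, a core lay both at strong peaks of both lists and at wild-type peaks missing from InsCBS5-10.

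The 2 lists differed in length more than in typical strength. Median fold was 5.61 in wild type, with quartiles of 3.60 and 8.72, and 5.57 in InsCBS5-10, with quartiles of 4.12 and 7.25. The wild-type list thus reached further at both ends, and its median −log10 q was 13.7, against 10.2. Of wild-type peaks, 17077 had no InsCBS5-10 peak, which is 36.6%, and of InsCBS5-10 peaks, 4148 had no wild-type peak, which is 12.3%. Among strong peaks these shares were far smaller: 323 of 14001 strong wild-type peaks (2.31%) and 9 of 10110 strong InsCBS5-10 peaks (0.089%). These counts depend on the overlap asked for: with a reciprocal overlap of 50%, 1194 strong wild-type and 467 strong InsCBS5-10 peaks had no partner. The numbers of reads are unknown, and their part in these counts was not tested.

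Strong wild-type peaks that were missing from InsCBS5-10 lay close to gene ends more often than those that were found. A gene end here is either end of a protein-coding gene, within 1 kb of the summit. It applied to 107 of 307 missing peaks that could be placed (34.9%, 95% interval 29.5 to 40.5) and to 1662 of 13366 found (12.4%, 11.9 to 13.0). Measured to gene starts alone, the shares were 28.0% and 7.77%. These and all other intervals of shares are exact Clopper-Pearson intervals and cover counting error only. Intervals of medians, given further on, come from binomial order statistics over sites and do not cover variation between libraries.

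The missing share was highest within 250 bp of a gene end, at 73 of 875 strong wild-type peaks (8.34%, 6.60 to 10.4). From there to 1 kb it was 3.80% of 894, and from 1 to 5 kb it was 1.67% of 2753. Farther out it was 1.86% of 4138 at 5 to 20 kb, 1.07% of 3635 at 20 to 100 kb and 2.76% of 1378 beyond 100 kb. It was thus not lowest in the most remote bin.

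**Figure D1:**
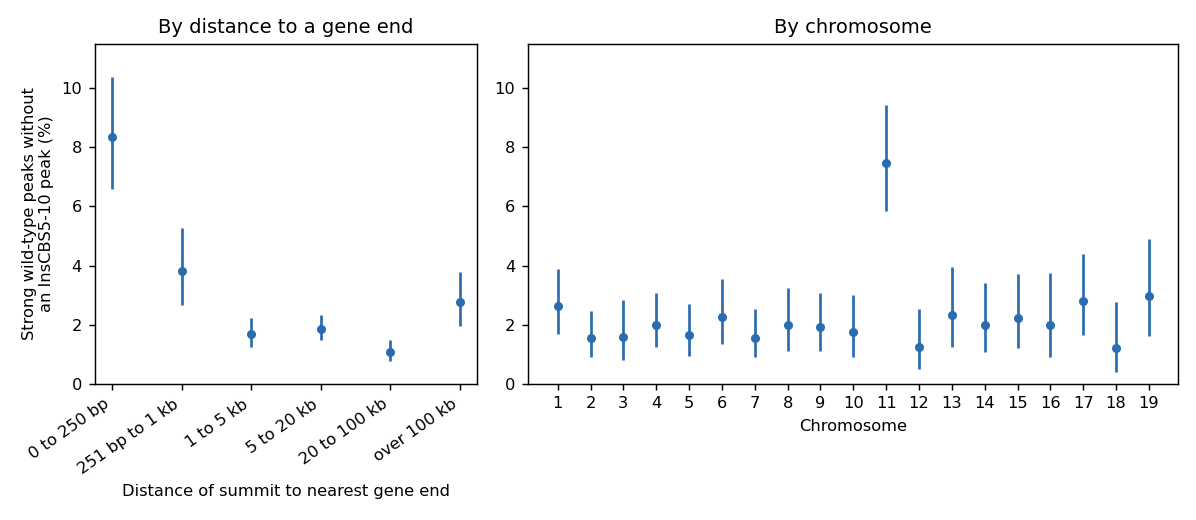
Share of strong wild-type CTCF peaks without an InsCBS5-10 peak (vertical axis, percent), by distance of the summit to the nearest gene end (left) and by chromosome (right); points are shares and bars exact 95% intervals. The bin within 250 bp stands at 8.34% and chromosome 11 at 7.48%, and the other 18 chromosomes lie between 1.20% and 2.95%.

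RAD21 calls divided the missing peaks by place. Of the 323, RAD21 in InsCBS5-10 was called at 132 (40.9%, 35.5 to 46.4), against 75.5% of the strong wild-type peaks found. At gene ends RAD21 was called at 15 of 107 missing peaks (14.0%, 8.06 to 22.1) and at 53.2% of those found. Elsewhere it was called at 111 of 200 missing peaks (55.5%, 48.3 to 62.5) and at 79.2% of those found. RAD21 was thus called in InsCBS5-10 at many sites where CTCF of the same genotype was not, and most of these sites lay away from gene ends. Of the 132, 36 lay on chromosome 11, whose reference was edited. Without that chromosome, RAD21 was called at 38.1% of missing peaks and 76.3% of those found. Missing peaks also had a lower median wild-type rank, 78.0 against 85.2, and RAD21 and strength were not separated here. RAD21 at the same sites in wild type was not analysed here.

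DelCBS7-10 carries the same rearranged HoxB and its CTCF list was close in length, at 35805 peaks. It held 194 of the 323 sites (60.1%, 54.5 to 65.4), at a median percentile rank of 39.0 where called. Both DelCBS7-10 CTCF and InsCBS5-10 RAD21 were called at 96 of them, and neither at 93. At gene ends, DelCBS7-10 held 72 of 107 (67.3%), and elsewhere 113 of 200 (56.5%). Of the strong wild-type peaks found in InsCBS5-10, DelCBS7-10 held 98.6%.

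The gap between gene ends and other places was widest among wild-type peaks of middle strength. In the fifth decile of wild-type fold, 48.1% of peaks at gene ends (43.3 to 52.8) and 68.7% of those elsewhere (67.3 to 70.1) were found in InsCBS5-10. In the sixth they were 63.1% and 85.0%. In the tenth, the strongest, they were 98.2% and 99.2%, and in the lowest the order was the other way, at 13.4% and 10.9%, with overlapping intervals. The same split in DelCBS7-10 was 75.9% against 86.1% in the sixth decile. RAD21 showed the gap at the top as well: in the tenth decile it was called at 53.1% of wild-type peaks at gene ends (49.7 to 56.5) and at 87.6% elsewhere (86.5 to 88.7).

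**Figure D2:**
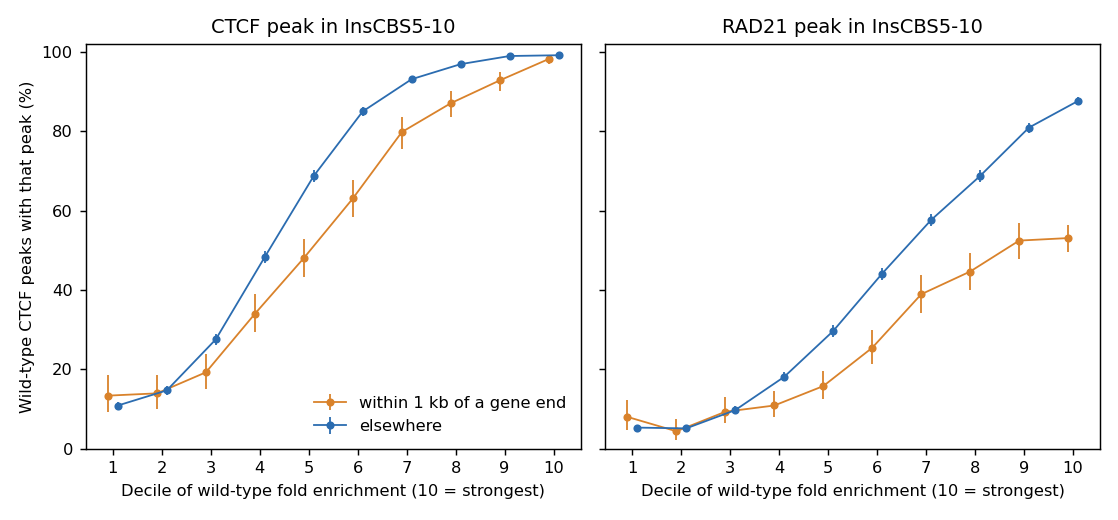
Share of wild-type CTCF peaks with a CTCF peak (left) or a RAD21 peak (right) in InsCBS5-10, in percent, by decile of wild-type fold enrichment (10 is strongest), for summits within 1 kb of a gene end and elsewhere; bars are exact 95% intervals. CTCF shares meet in the tenth decile at 98.2% and 99.2%, and RAD21 shares there stand at 53.1% and 87.6%.

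Narrow strong wild-type peaks were missing more often than wide ones. Of 51 strong wild-type peaks under 200 bp wide, 35 were missing (68.6%, 54.1 to 80.9), against 10.4% of 824 in the class from 200 to under 300 bp and 0.64% of 2029 at 500 bp or more. The 5 strongest missing peaks were 135 to 155 bp wide, lay more than 5 kb from any gene end and had no peak in DelCBS7-10 or RAD21. Their folds were 50.6 on chromosome 13 (77438909 to 77439055), 37.0 on chromosome 14, 32.9 and 26.5 on chromosome 17, and 30.1 on chromosome 2. Without peaks under 200 bp, an alternative chosen after seeing the data, 288 strong wild-type peaks were missing, 39.0% of those placed were at gene ends, and 44.1% carried RAD21. Regions prone to artifacts were not masked, and their part in the narrow peaks was not tested.

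Of the strong wild-type peaks that were missing, 132 had a −log10 q of at least 5 and a gene start within 5 kb, or either gene end where the strand is not known, and 11 of the 12 of highest fold are given here. The first was a 135 bp peak by Kpna1, an importin alpha that carries proteins into the nucleus, at chr16:35981682-35981816, with a fold of 22.4 at rank 99.9. Utp6, a ribosome assembly factor (17.0), and Kctd6, an adaptor of ubiquitin ligases (16.6, rank 99.2), followed. None of these 3 had a peak in DelCBS7-10 or a RAD21 peak.

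Of the other 8, 6 had a DelCBS7-10 peak, and 2, by Ppp1ca and Hoxd12, did not. By Carm1, an arginine methyltransferase and coactivator, the fold was 16.6 in wild type at rank 99.2 and 7.12 in DelCBS7-10 at rank 79.0. By Med13, of the Mediator kinase module, it was 15.6 at rank 98.7 and 4.19 at rank 27.8. At Anp32b, a histone chaperone (chr4:46450812-46451253), it was 15.6 at rank 98.7 and 5.44 at rank 52.4. RAD21 was called in InsCBS5-10 at none of these 3. By Kdm6b, the demethylase of lysine 27 on histone H3 (chr11:69401228-69401630), the fold was 14.2 in wild type and 6.26 in DelCBS7-10, and RAD21 was called at 8.16. By Asgr1, a liver lectin (chr11:70055620-70055975), it was 13.9 and 8.05, with RAD21 at 11.3. Ppp1ca, a catalytic subunit of protein phosphatase 1 (chr19:4191805-4192247, 12.7), had neither. Tmem65, a mitochondrial membrane protein (chr15:58823447-58823823, 12.4), had a DelCBS7-10 peak of 4.32.

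The peak by Hoxd12, a posterior gene of the HoxD cluster, was the only Hox peak among the 11. It lay at chr2:74672947-74673372, 1878 bp from the gene, with a fold of 13.2 at rank 95.5 in wild type. CTCF was called there in neither mutant, while RAD21 was called in InsCBS5-10 with a fold of 7.85 at rank 71.5. Of these 11 peaks, 6 had their summit within 200 bp of a gene start or end, 6 had a DelCBS7-10 peak, 3 had RAD21, and 4 lay on chromosome 11.

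**Figure D3:**
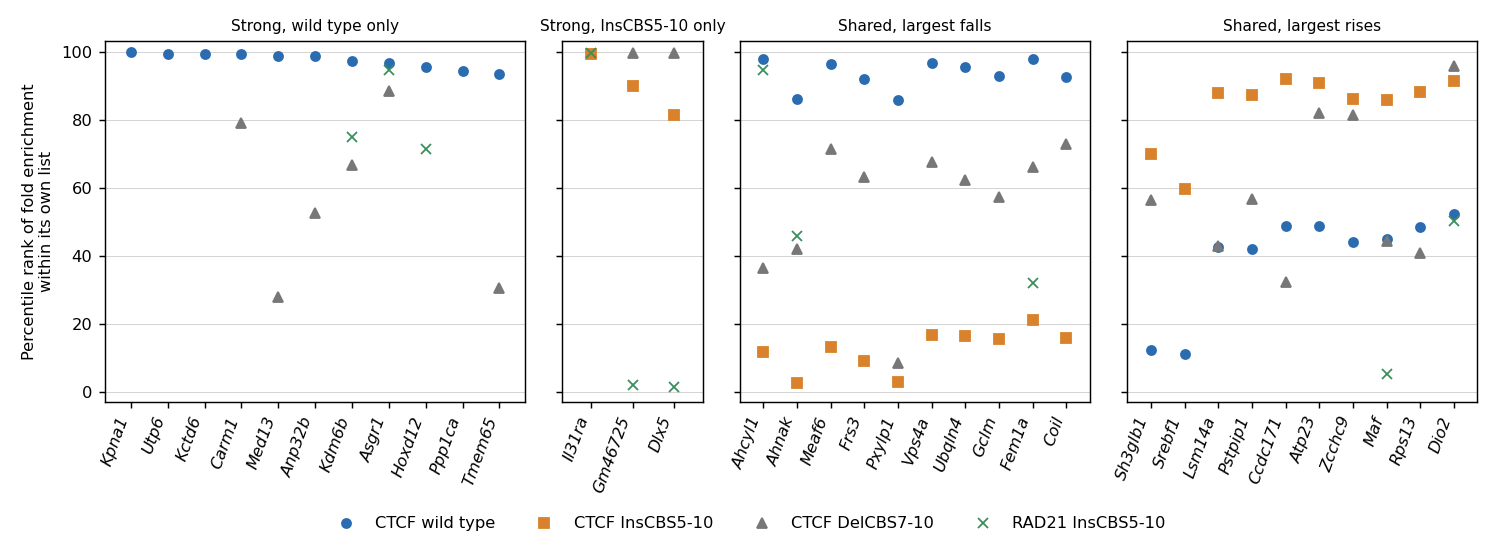
Percentile rank of fold enrichment within each list (vertical axis, 100 is strongest) for the named peaks, by gene: strong in wild type only, strong in InsCBS5-10 only, and the largest falls and rises of rank at shared sites; a missing symbol means no peak in that list. In the falls, the InsCBS5-10 ranks lie between 2.66 and 21.0 and the DelCBS7-10 ranks between 8.46 and 72.7.

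In the other direction, 9 strong InsCBS5-10 peaks had no wild-type peak, and DelCBS7-10 held 8 of them. The strongest, at chr9:3258820-3259094, lay 76338 bp from the nearest gene end, that of Alkbh8, with a fold of 13.6 at rank 99.4. DelCBS7-10 had 15.7 there and RAD21 had 23.1, at rank 99.8. Only 3 of the 9 lay within 5 kb of a gene start or end and could be named. The peak inside Il31ra, a cytokine receptor, was the only one of the 9 without a DelCBS7-10 peak. It was 167 bp wide, with a fold of 12.9 at rank 99.2, and RAD21 stood at 19.5 and rank 99.7. The peak by Dlx5, a homeobox factor of forebrain and skeleton, ranked 81.2 in InsCBS5-10 and 99.6 in DelCBS7-10, with RAD21 near the bottom of its list at rank 1.46. The peak at chr2:18693973-18694479, 142 bp from an end of Spag6, ranked 89.7 and 99.6, with RAD21 at rank 2.01. It was named by the rule for Gm46725, a predicted gene. The other 5, with folds of 6.91 to 7.98, carried no RAD21.

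At the 29464 shared sites, fold enrichment in the 2 lists went together across sites, with a Spearman coefficient of 0.723. Sites share a genome and 1 library each, so this is a description. The median rank was 67.6 in wild type and 56.2 in InsCBS5-10, and the median of the difference in rank, InsCBS5-10 minus wild type, was -8.27 points with quartiles of -22.1 and 2.53. By 20 points or more, 8319 sites (28.2%) ranked lower in InsCBS5-10 and 1409 (4.78%) ranked higher. Ranks in lists of different length are not on 1 scale, because the longer list holds more weak peaks below each shared site. Ranked among the shared sites alone, where both sides have the same length, the median difference was 0.28, 4741 sites (16.1%) ranked lower and 4790 (16.3%) ranked higher. On this second scale both sides hold the same ranks, so lower and higher differences balance by construction. It shows which sites shifted relative to other shared sites and cannot show an excess in 1 direction. On both scales, 4683 sites were lower and 1385 higher.

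**Figure D4:**
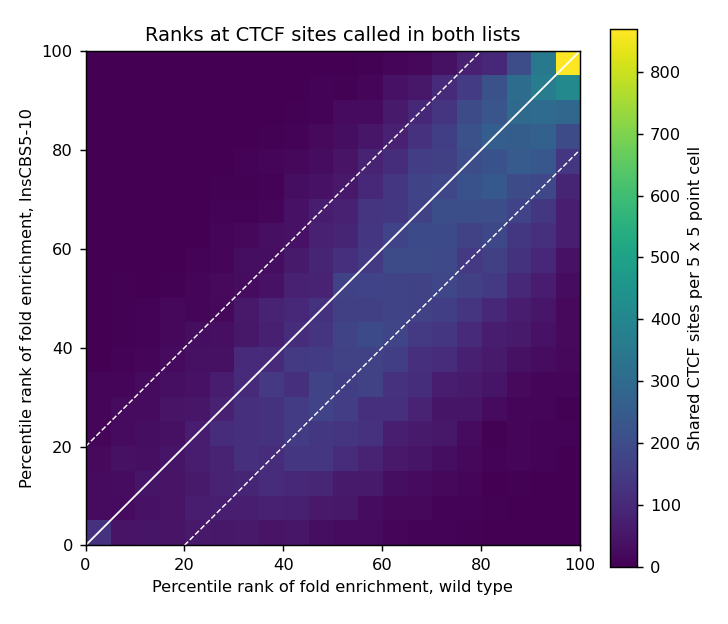
Percentile rank of fold enrichment within the wild-type list (horizontal) and within the InsCBS5-10 list (vertical) at the 29464 shared CTCF sites, coloured by the number of sites in each cell of 5 by 5 points; the solid line marks equal ranks and the dashed lines differences of 20 points. More sites lie below the lower dashed line (8319) than above the upper one (1409).

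The rank difference was more negative at gene ends than elsewhere on both scales. The ranks themselves were higher at gene ends: the medians within the lists were 77.5 in wild type and 58.4 in InsCBS5-10, against 66.5 and 56.0 elsewhere. Among 2725 shared sites within 1 kb of a gene end, the median difference was -14.0 points by rank within the lists and -6.56 by rank among shared sites. Among 26166 sites elsewhere it was -7.66 and 0.94. On the second scale, 28.9% of sites at gene ends ranked lower by 20 points or more (27.2 to 30.6) and 9.39% ranked higher, and elsewhere 14.6% ranked lower and 17.0% higher. At gene ends the median was -6.17 in 1189 sites with RAD21 and -6.63 in 1536 without it on that scale, and -11.8 (95% interval of the median -13.3 to -10.5) and -15.7 (-17.3 to -14.5) by rank within the lists. Away from gene ends it was -1.27 in 14700 sites with RAD21 and 4.51 in 11466 without it, and -8.34 and -6.80 by rank within the lists. The gap by RAD21 at gene ends thus depended on the scale, while elsewhere the median difference was lower with RAD21 than without it on both. Sites with RAD21 also had a higher median wild-type rank, 84.7 against 70.4 at gene ends and 77.3 against 51.3 elsewhere. Elsewhere, the median difference went from 4.86 in the fifth wild-type decile to -5.30 in the tenth by rank among shared sites. By rank within the lists it went from -11.0 to -6.38. RAD21 and strength were not separated.

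In the tenth wild-type decile the same split held on the second scale, at -14.5 points for 825 shared sites at gene ends and -5.30 for 3680 elsewhere. In the eighth decile it was -8.15 and -0.095. In the second decile both medians lay above 0, at 9.52 and 7.76. Sites picked for a high wild-type rank have little room to rank higher in InsCBS5-10, so the comparison is between gene ends and other places within a decile.

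Shared sites with the largest shifts differed in place and in RAD21. Of 1863 sites 40 points or more lower in InsCBS5-10, 20.6% were at gene ends (18.7 to 22.5), falling to 11.2% of 6456 sites 20 to 40 points lower, 8.11% of 19736 within 20 points, and 5.27% of 1409 sites 20 points or more higher (4.15 to 6.58). RAD21 was called at 59.5%, 55.4%, 55.6% and 34.3% of these classes. Ranked among shared sites alone, the gene-end shares were 25.9%, 14.3%, 8.59% and 5.44%, and RAD21 was called at 66.4%, 67.2%, 54.6% and 43.3%. Sites that ranked higher in InsCBS5-10 thus had the lowest shares of gene ends and of RAD21 on both scales. Their median wild-type rank was also lower, at 47.2 against 68.8 within 20 points. RAD21 calls rose with that rank: away from gene ends, from 29.7% of wild-type peaks in the fifth decile to 87.6% in the tenth. Their RAD21 share was not separated from strength. The higher sites had a median fold of 5.30 in wild type and 7.37 in InsCBS5-10, while the sites 40 points or more lower went from 8.80 to 4.11. Sites 40 points or more lower had a median wild-type rank of 75.6, against 24.4 for InsCBS5-10 and 47.7 for DelCBS7-10, and sites 20 points or more higher had 47.2, 76.5 and 60.4. In the class within 20 points the medians were 68.8, 66.6 and 66.4. The classes were chosen by the difference between the first 2 of these lists, so nothing is read from the place of DelCBS7-10 relative to them.

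The 10 largest falls of rank near genes were chosen by that fall, so their values are a description. Ahcyl1, a regulator of inositol trisphosphate receptors, had a fold of 14.6 in wild type at rank 97.7 and 3.41 in InsCBS5-10 at rank 11.6. RAD21 was nevertheless called there in InsCBS5-10 with a fold of 11.3 at rank 94.5. At Meaf6, a subunit of histone acetyltransferase complexes, the fold was 13.7 at rank 96.4 and 3.46 at rank 13.2. At Pxylp1, a phosphatase of glycosaminoglycan synthesis, it was 10.5 at rank 85.7 and 2.90 at rank 2.86, and DelCBS7-10 was as low, at rank 8.46. No RAD21 was called at Meaf6 or Pxylp1.

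The remaining 7 ran from a wild-type rank of 86.1 to one of 97.8. Frs3, an adaptor of FGF receptors, went from a fold of 11.95 to 3.26. Vps4a, an ATPase of membrane scission, went from 13.8 to 3.70. Ubqln4, a carrier of proteins to the proteasome, went from 13.1 to 3.68. In each of these 3 the summit lay within 200 bp of the gene start. Gclm, of glutathione synthesis, went from 12.2 to 3.61. Coil, the coilin of Cajal bodies on chromosome 11, went from 12.1 to 3.64. Fem1a, a receptor of ubiquitin ligases, went from 14.6 to 3.91, with RAD21 at rank 32.0, and Ahnak, a large scaffold protein, from 10.6 to 2.88, with RAD21 at rank 45.9. Of the 10, 8 had their summit within 200 bp of a gene start, 3 had RAD21 and all 10 were called in DelCBS7-10. Ranked among shared sites alone, their falls were of 76.3 to 90.9 points.

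The 10 largest rises near genes lay 1611 to 3862 bp from the start of the gene that names them (by Maf, from an end), and none was within 200 bp. Those by Pstpip1 and Ccdc171 lay inside the gene. By Sh3glb1, an endophilin of mitochondria and autophagy, the fold was 2.97 in wild type at rank 12.3 and 6.86 in InsCBS5-10 at rank 69.97. By Srebf1, a transcription factor of lipid synthesis on chromosome 11, it was 2.93 with a −log10 q of 1.88, close to the limit of calling, and 6.17 in InsCBS5-10. The others started from middle ranks of 41.8 to 52.2 in wild type and reached 85.6 to 91.9. Dio2, a deiodinase of thyroid hormone, had folds of 5.84 and 9.07 and ranked 95.8 in DelCBS7-10, with RAD21 at rank 50.2. Maf, a leucine-zipper factor, had folds of 5.08 and 8.26, with RAD21 at rank 5.32. RAD21 was called at no other rise. The remaining rises were by Lsm14a, Pstpip1, Ccdc171, Atp23, Zcchc9 and Rps13. DelCBS7-10 held 9 of the 10, all but the site by Srebf1.

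Promoters were compared by sequence where the summit fell in the 300-base window. The core was in 106 of 568 promoters with a strong wild-type peak that was found in InsCBS5-10 (18.7%, 15.5 to 22.1) and in 3 of 60 with a strong peak that was missing (5%, 1.04 to 13.9). Counted the other way, 3 of 109 strong promoter peaks with a core were missing (2.75%, 0.571 to 7.83) and 57 of 519 without it (10.98%, 8.42 to 14.0). With the looser core the difference was smaller: it was in 283 of the 568 promoters found (49.8%, 45.6 to 54.0) and in 23 of the 60 missing (38.3%, 26.1 to 51.8), and 7.52% of 306 strong peaks with it (4.82 to 11.1) and 11.49% of 322 without it (8.22 to 15.5) were missing, with overlapping intervals. For the stricter core, the median wild-type fold was 12.9 with it and 11.9 without it. RAD21 was called at 42.2% and 36.0%, with overlapping intervals of 32.8 to 52.0 and 31.9 to 40.3.

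Missing promoter peaks were also richer in CpG. The median was 28.5 CpG in the 60 missing and 22 in the 568 found. Split into 3 classes by CpG, 10 of 228 strong peaks were missing where the window held 1 to 18 CpG (4.39%, 2.12 to 7.92), 18 of 197 at 19 to 26 CpG (9.14%, 5.51 to 14.1) and 32 of 203 at 27 to 55 CpG (15.8%, 11.04 to 21.5). In DelCBS7-10 the missing shares were 3.07%, 5.58% and 9.36% in the same order. Among the promoter sites still shared, the median rank difference was -13.3, -22.3 and -28.8 points by rank among shared sites. By 20 points or more, 82 of 218 (37.6%), 94 of 179 (52.5%) and 107 of 171 (62.6%) ranked lower, against 16.1% of all shared sites. These classes hold only strong wild-type peaks, which have little room to rank higher, so the comparison is between the classes. The median wild-type fold was 11.7, 12.7 and 12.2, so the classes began at like strength. Promoters with the stricter core held fewer CpG, with a median of 17 against 23 without it, and the 2 features were not separated.

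**Figure D5:**
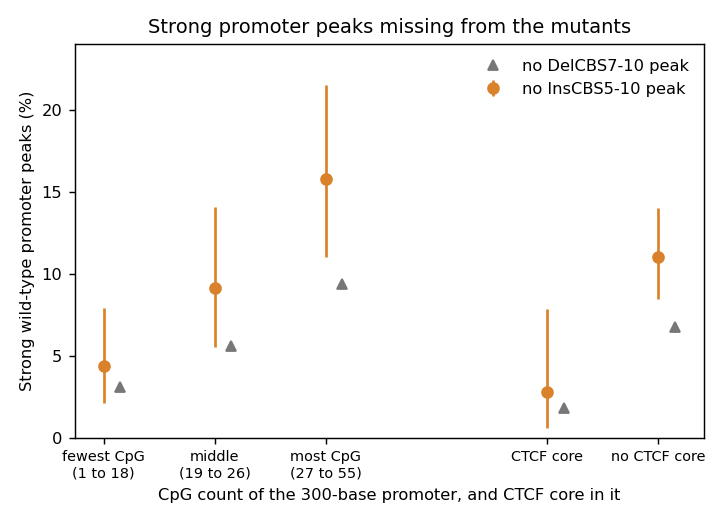
Share of strong wild-type promoter peaks without a peak in InsCBS5-10 (circles, with exact 95% intervals) and in DelCBS7-10 (triangles), in percent, by CpG count of the 300-base promoter and by presence of the CTCF core in it. For InsCBS5-10 the share was 4.39%, 9.14% and 15.8% from the lowest to the highest CpG class, and 2.75% with the core and 10.98% without it.

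Gene groups of the early body axis were read against all 20105 protein-coding genes that could be placed. Of those genes, 154 (0.766%) had a strong wild-type peak missing from InsCBS5-10 within 5 kb, 4 (0.0199%) a strong InsCBS5-10 peak missing from wild type, 2234 (11.1%) a shared site ranked lower by 20 points or more, and 253 (1.26%) a site ranked higher. By rank among shared sites the last 2 shares were 7.81% and 4.57%. Neighbouring genes can share a peak, so these counts exceed the number of sites. A gene with no peak cannot have a shifted site, and a wild-type peak of any strength lay by 8129 of all genes (40.4%). That share was 75% in the posterior growth zone, 66.7% in the neural list, 61.8% in ribosomal proteins and 94.7% in protocadherins. In the transcription machinery it was 39.7%. It was 58.3%, 66.7% and 80% in the HoxA, HoxC and HoxD lists, 68.75% in genes of CTCF and cohesin and 58.8% in imprinted genes. For the somite, endoderm and heart, pluripotency and Zfp lists it was 61.1%, 50%, 56.25% and 40.2%. The shares of lower and higher sites below were not adjusted for this.

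In the HoxA list, 3 of 12 genes (25%) had a lower site, from 2 peaks. The peak at the start of Hoxa5, also counted for Hoxa6, had a fold of 14.5 in wild type at rank 97.7 and 5.14 in InsCBS5-10 at rank 42.6, and DelCBS7-10 lay at rank 39.8. RAD21 was called there at rank 61.0. The peak by Hoxa13, the last gene of the cluster, went from 8.88 to 5.14, with RAD21 at rank 96.7 and no DelCBS7-10 peak. The HoxA cluster was not among the edited sequences.

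In the HoxC list, 4 of 9 genes (44.4%) had a lower site, again from 2 peaks. The peak by Hoxc8 and Hoxc9 went from a fold of 12.2 at rank 92.8 to 5.07 at rank 41.4, and the peak by Hoxc5 and Hoxc6 went from 9.83 at rank 82.0 to 6.06 at rank 57.9. RAD21 was called at both, at ranks of 86.1 and 35.8, and DelCBS7-10 had a peak at neither. In the HoxD list, 2 of 10 genes (20%) had the missing peak by Hoxd12, and 2 of 10 a lower site, which was the peak by Evx2 and Hoxd13, from 7.79 at rank 68.3 to 4.01 at rank 22.6. Across HoxA, HoxC and HoxD no site near a gene ranked higher by 20 points within the lists, while 3 of 10 HoxD genes had a higher site by rank among shared sites.

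At and around HoxB, positions are those of the edited chromosome 11, where genes beyond the start of Hoxb13 could not be placed. No HoxB gene therefore entered these counts. The region read here begins before the cluster: its wild-type peaks from 96127019 to 96157565, all found, lie before the start of Hoxb13, near 96194300. Of 19 wild-type peaks of this region, from 96127019 to 96374618, 13 were found in InsCBS5-10 and 6 were not, and of 14 InsCBS5-10 peaks 1 had no wild-type peak. The strongest wild-type site, at 96238556 to 96238976, ranked 96.4 in wild type and 63.8 in InsCBS5-10, and the site at 96214227 to 96214672 ranked 95.3 and 24.8. The outermost sites, at 96127019 to 96127413 and 96374222 to 96374618, ranked 87.3 and 94.3 in wild type and 77.7 and 82.9 in InsCBS5-10. The peak at 96199505 to 96199711 ranked higher, from 3.87 to 30.2, and the peak in InsCBS5-10 alone, at 96288522 to 96289187, ranked 42.9. The strongest peak not found, at 96247134 to 96247449, ranked 64.1 in wild type. HoxB was present in 1 copy in InsCBS5-10, and its part in these ranks was not tested.

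Among genes of the posterior growth zone, which feeds the extending axis, 3 of 20 (15%) had a lower site, none had a higher one and none had a strong missing peak. A wild-type peak of any strength lay by 15 of these 20, while 8129 of all genes had such a peak and 2234 a lower site. The rank among shared sites gave 3 with a lower site and 3 with a higher one. Cdx1, a caudal homeobox factor, went from a fold of 10.8 at rank 87.3 to 5.72 at rank 52.3. Gdf11, a signal that sets the trunk to tail transition, went from 9.56 to 5.92, and Wnt5b, a secreted Wnt ligand, from 7.12 to 3.94. In the somite list, 1 of 18 genes (5.56%) had a lower site: Aldh1a2, which makes retinoic acid, went from 8.57 at rank 74.0 to 4.23 at rank 26.9. Hes7, the oscillator of the segmentation clock on chromosome 11, had a strong wild-type peak of 8.41 missing from both mutants and, 4980 bp from the gene, a site that ranked higher, from 5.44 to 6.86. Of the 18, 1 had a lower and 2 a higher site by rank among shared sites.

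The neural list had 5 of 24 genes (20.8%) with a lower site. Neurog2, a proneural factor, went from a fold of 13.4 at rank 95.8 to 7.24 at rank 74.9, and Lhx5, a LIM-homeobox factor, from 14.1 to 6.75. Shh, the ligand of ventral patterning, went from 10.1 to 5.58 with RAD21 at rank 94.2, and Irx3, an Iroquois factor, from 9.31 to 4.68. Dlx5 had both kinds of site, the InsCBS5-10 peak given above and a shared site that went from 13.5 at rank 96.2 to 6.38 at rank 62.8. Tox3 had a higher site, from 6.30 to 7.52. Of the 24, 6 had a lower and 3 a higher site by rank among shared sites. In the endoderm and heart list, Foxa1, a pioneer factor, went from 8.10 to 5.38 and Cer1, a secreted inhibitor, from 4.23 to 6.17, and in the pluripotency list Prdm1 went from 6.38 to 4.52. Lower sites thus lay by 1 of 16 genes in each of these lists (6.25%). By rank among shared sites, 1 endoderm and heart gene had a lower site and 3 (18.75%) a higher one, and in the pluripotency list none had a lower site and 1 a higher one. Prdm1 fell by 11.4 points on that scale.

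Of 16 genes of CTCF and cohesin, 11 had a wild-type peak of any strength within 5 kb. Over all genes, 8129 had such a peak and 2234 a lower site. Lower sites lay by 4 of the 16 (25%), and by rank among shared sites 4 had a lower and 1 a higher site. Pds5b, a regulator of cohesin release, had the highest wild-type rank of these, 99.4, with a fold of 17.0 that went to 4.27 at rank 27.5, with RAD21 at rank 30.6 and no DelCBS7-10 peak. The peak at the start of Ctcf went from 9.53 at rank 80.3 to 4.43 at rank 30.1, and its relative Ctcfl from 11.7 to 6.55. Maz, a zinc-finger factor that shares sites with CTCF, went from 5.78 to 3.49. None of these peaks says how much protein was made.

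Imprinted genes, some of which carry CTCF sites whose binding depends on DNA methylation, had 7 of 34 (20.6%) with a lower site and none with a higher one, and by rank among shared sites these were 6 and none. Grb10, a growth factor receptor adaptor on chromosome 11, went from a fold of 13.1 at rank 95.2 to 5.83 at rank 54.2. Mest went from 10.4 at rank 85.4 to 4.50 at rank 31.8 with RAD21 at rank 86.7. The bidirectional promoter of Peg10 and Sgce went from 9.03 to 5.06, and Kcnk9, a potassium channel, from 11.02 to 6.24. Cdkn1c and Snrpn had weaker sites, from 4.79 to 3.32 and from 6.77 to 4.29.

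In the transcription machinery, 3 of 58 genes (5.17%) had a strong missing peak, against 0.766% of all genes, and all 3 encode Mediator subunits. Med11 had a fold of 10.8, with RAD21 at rank 46.1, and Med15 one of 8.82, beside Med13 described above, and all 3 had a DelCBS7-10 peak. Med11 and Med13 are on chromosome 11. Lower sites were by Polr2h, a subunit of the RNA polymerases, from 13.3 at rank 95.7 to 4.68 at rank 34.6, and by Polr2c, Polr2i and Med25, which makes 4 of 58 (6.90%). Among cytosolic ribosomal proteins, 2 of 76 had a strong missing peak, Rps15 (9.53) and Rpl26 (8.12, on chromosome 11), 15 (19.7%) had a lower site and 2 a higher one. By rank among shared sites, 12 had a lower site and 5 a higher one, against 3 and 3 of 58 in the transcription machinery. The largest of those falls was by Rps19, from 11.1 at rank 88.5 to 3.90 at rank 20.9.

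The clustered protocadherins, cell-surface proteins whose promoter choice depends on CTCF and cohesin, had the highest share of genes with a lower site of the lists examined, by rank within the lists. Lower sites lay by 34 of 57 genes (59.6%) and higher sites by 9 (15.8%), from 10 and 7 peaks. A peak by the end that most Pcdhg genes share, and counted for each of them, went from a fold of 10.9 at rank 87.6 to 6.34. By rank among shared sites, 22 genes had a lower site and 17 a higher one. At Pcdhga3 the fold went from 10.9 at rank 87.8 to 5.11 at rank 42.1, whereas by Pcdhga12 it went from 7.49 at rank 66.0 to 10.2 at rank 95.9. Sites within this cluster thus shifted in opposite directions.

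Zinc-finger genes named Zfp had lower sites at 43 of 386 (11.1%), the same share as all genes, and 5 (1.295%) had a strong missing peak: Zfp282, Zfp319, Zfp619, Zfp729b and Zfp868, with wild-type folds of 8.04 to 10.1. Sensory receptor genes, which lie in large arrays, had few peaks at all. A wild-type peak lay near 75 of 1104 olfactory receptors (6.79%) and 20 of 352 vomeronasal receptors (5.68%), against 40.4% of all genes. Lower sites were by 6 (0.543%) and 2 (0.568%) of them, higher sites by 4 olfactory receptors, and no strong wild-type peak near either group was missing. By rank among shared sites, 3 olfactory receptors had a lower site and 7 a higher one, and no vomeronasal receptor had either.

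Chromosome 11, whose reference the authors edited and which is present in 2 versions, stood apart. Of its 882 strong wild-type peaks, 66 were missing from InsCBS5-10 (7.48%, 5.83 to 9.42), while the other chromosomes ran from 1.20% on chromosome 18 to 2.95% on chromosome 19. The median shift of its shared sites was -12.3 points, against -6.70 to -9.27 on the others. Median fold of CTCF in wild type was 6.77 on chromosome 11 and 5.53 on the others. In InsCBS5-10 it was 5.59 and 5.57, and in DelCBS7-10 5.28 and 5.31. For RAD21 in InsCBS5-10 it was 6.88 and 6.14. The sources used here do not say how reads of both versions were assigned, and the part of this in these values was not tested. Without chromosome 11, 270 of 13309 strong wild-type peaks were missing and 8 of 9571 strong InsCBS5-10 peaks, the share of missing peaks at gene ends was 34.4%, and the median shift at shared sites was -8.52 points.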

How the data were processed

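CTCF in 3 genotypes and RAD21 in InsCBS5-10 were mapped by ChIPmentation in gastruloids at 96 h, with 1 library per group, and groups were taken from the sample titles. The deposited files are 1 narrowPeak list per library. cutadapt 4.1, MACS2 2.2.7.1 and the build mm10 are named per the submitters' processing notes, and per the peak names in the files the reference was an mm10 edited at HoxB with 2 versions of chromosome 11. The sources used here do not give the aligner, filters, control library or caller options. The authors' score is 10 times the −log10 q. The authors' fold enrichment, a ratio, sets each summit against its own library's background. The −log10 p and −log10 q were deposited per library too, the smallest −log10 q being 1.30. The summit position is deposited as an offset from the peak start. These values were used only to rank or filter peaks within a list, and read depth is unknown. Not analysed here was 1 list that belongs to no sample, of RAD21 in wild type.

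Rows with equal intervals were merged to the summit of highest −log10 q, and chromosomes 1 to 19 were kept. At shared sites, each pair was the mutual best match by −log10 q. Genes came from the RefSeq table of GRCm38.p6 (20105 of 20665 protein-coding genes placed, those beyond Hoxb13 on chromosome 11 left out), and promoters from its table of 19551 windows, which has none on chromosome 18. Named were peaks with −log10 q of 5 or more, in the list where they were stronger, within 5 kb of a gene start, or of either end where the strand is not given: the 12 strongest in each list only, the 10 largest falls and rises of rank, and members of 17 gene lists with such a peak or a shift of 20 points. A result picked by this rule (1 peak) is not reported here. The peaks compared, the gene lists and the naming rule were chosen with earlier results of these data known. With no replicates, no test was made. The pairing was tested on simulated data. Alternatives covered the overlap, threshold, merging, strength measure, ranking scale, gene distance, RAD21 match and chromosome 11. Peak width, gene starts alone and a looser motif core were chosen after seeing the data. The shares of RAD21 and gene ends by rank among shared sites were not planned either. Python 3.11.15, pandas 2.3.3, numpy 2.4.6, scipy 1.17.1 and matplotlib 3.10.9 were used.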

Additional observations from a re-analysis of the deposited data

How the results depend on the processing

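Over 15 alternatives, 53 of 88 values stayed within the limits set, 34 moved and 1 turned its sign; where the cause is not the alternative's own construction, it was not tested. Ranked among shared sites alone, the median shift turned from -8.27 to 0.28, with 4741 sites lower and 4790 higher, RAD21 at 67.0% of lower, 43.3% of higher and 54.6% of sites within 20 points, and gene ends at 17.1% of lower and 8.59% of sites within 20 points. With a reciprocal overlap of 50%, 7212 InsCBS5-10 peaks had no wild-type peak, 1194 strong wild-type and 467 strong InsCBS5-10 peaks were missing, and the median shift was -7.89. With a −log10 q of 5 or more, which shortened both lists, 9956 of 33887 wild-type and 910 of 24791 InsCBS5-10 peaks had none. Of 23852 shared sites, 2161 then ranked higher, and the median shift was -7.64. Strong InsCBS5-10 peaks without a wild-type peak numbered 42 with summits within 200 bp, 14 with each summit counted, 4 by −log10 q and 2 in the top 10%, where strong wild-type peaks missing numbered 49. With a shift of 30 points, 4301 sites were lower and 414 higher. Within 5 kb, gene ends made up 49.8% of strong wild-type peaks missing, 32.7% of those found, 33.6% of lower, 21.0% of higher and 26.9% of other shared sites. With gene starts alone, chosen after seeing the data, they made up 28.0% and 7.77%, and 0 of 8 strong InsCBS5-10 peaks missing from wild type. With RAD21 summits within 200 bp, RAD21 was at 55.2% of lower sites and 54.7% of those within 20 points, and without chromosome 11 it was at 76.3% of strong wild-type peaks found and 56.3% of sites within 20 points. No paired analysis was possible because each group had 1 library.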
